A study of Mus musculus with 24 samples.

Results

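The genes described here are 10 Klf genes: Klf2, Klf3, Klf4, Klf6, Klf7, Klf9, Klf10, Klf11, Klf12 and Klf13. They are represented by the ATAC-seq regions that overlap the body of one of these genes, or whose nearest protein-coding gene end within 50 kb belongs to one, which gave 24 of the 13910 regions in the deposited table. The genes were selected on the measured recipient difference, IκB– minus WT, above all that of a region near Klf9, so every recipient value below describes the choice and is not a test of it. ATAC-seq uses the Tn5 transposase to cut open chromatin, and the count in a region measures how accessible its DNA was.

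Bone marrow carrying the CD45.1 marker, labelled WT, had been transplanted into young CD45.2 mice that were either WT or IκB–. All 8 groups therefore hold donor cells of 1 genotype, and only the recipient differed; the labels do not describe the genetic change behind the name IκB–, and no condition without transplantation is among the groups. Donor cells were taken from femur and tibia after 13 to 15 weeks, and 500 to 1500 cells per sample were sorted as long-term hematopoietic stem cells (HSC) or as the multipotent progenitors MPP2, MPP3 or MPP4, with 3 libraries for each subset and recipient type. The sorting protocol defines MPP2 and MPP3 by CD48 with or without CD150 and MPP4 by Flt3, and it writes the HSC gate as negative for both CD150 and CD48. The labels do not say that the 3 libraries of a group came from separate mice, so p-values measure the spread between these samples.

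Krüppel-like factors bind GC-rich and CACCC-type elements through conserved C-terminal zinc fingers and differ mainly in the N-terminal parts that recruit cofactors. Klf2, Klf4, Klf6 and Klf7 act mostly as activators, Klf3 and Klf12 recruit the corepressor CtBP, and Klf9, Klf10, Klf11 and Klf13 recruit the corepressor SIN3. In blood cells the family is known for controlling quiescence, lineage choice and migration, with Klf2 maintaining quiescence and trafficking of lymphocytes and Klf4 acting in monocyte differentiation.

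The sequences below are the 250 bases before the annotated start of 3 of the genes, chosen because they span the range of GC boxes found, with none in Klf9, 3 in Klf13 and 6 in Klf3, and because an accessible region covered every base of each. They are RefSeq sequences of the mouse assembly GRCm38.p6, printed 5′ to 3′ on the gene's strand, and the capitals mark 3 motifs on either strand: the GC box with the letters GGGCGG, the CACCC element bound by many family members, and the CCAAT box.
Klf9, chr19:23140976-23141225, plus strand: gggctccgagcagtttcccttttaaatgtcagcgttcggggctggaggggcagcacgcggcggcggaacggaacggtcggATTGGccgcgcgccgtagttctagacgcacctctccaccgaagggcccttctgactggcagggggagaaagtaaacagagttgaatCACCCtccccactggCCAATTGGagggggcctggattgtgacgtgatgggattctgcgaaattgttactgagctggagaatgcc
Klf13, chr7:63938916-63939165, minus strand: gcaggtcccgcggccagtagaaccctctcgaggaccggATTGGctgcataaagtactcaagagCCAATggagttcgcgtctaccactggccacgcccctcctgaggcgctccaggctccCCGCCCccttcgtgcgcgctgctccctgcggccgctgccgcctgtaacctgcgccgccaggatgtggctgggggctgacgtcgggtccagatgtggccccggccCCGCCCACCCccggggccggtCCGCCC
Klf3, chr5:64803271-64803520, plus strand: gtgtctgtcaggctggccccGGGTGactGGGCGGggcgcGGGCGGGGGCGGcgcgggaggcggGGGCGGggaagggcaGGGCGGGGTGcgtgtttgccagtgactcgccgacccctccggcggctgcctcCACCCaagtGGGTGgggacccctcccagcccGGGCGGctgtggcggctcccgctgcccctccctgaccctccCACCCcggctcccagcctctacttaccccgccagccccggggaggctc
The RefSeq promoter table holds 9 of the 10 genes. A GC box stood in 7 of these 9 windows, against 32.7% of the 32851 promoters of that length in the table. CACCC stood in 6 of 9, against 52.0% of all promoters, and CCAAT in 4 of 9, against 33.9%. In Klf3 and in Klf13, 1 CACCC match shares bases with a GC box. The Klf9 window holds 1 CACCC and 3 CCAAT matches, and the Klf13 window 1 and 2. TATAAA, also searched on either strand, was found in 1 window, that of Klf12, against 12.4% of all promoters. There it stands on the strand opposite to the gene. The letters TGTTCT, a core of glucocorticoid receptor sites, were found in none of the 9, against 16.1% of all promoters. These are letter matches in a window and not measured binding. A region covered the whole window in 7 genes and 165 of the 250 bases in Klf7. The Klf12 window was covered by none, since its annotated start in that table lies inside the gene, away from the region at the gene's outer end.

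The counts per library summed to between 121599 and 963699. In WT MPP3, replicates 2 and 3 differed by about as much as sampling noise alone gives (1.005 chi-square units per degree of freedom), so they were added up and used as a single sample, which leaves 23 replicates and n = 2 for that group. Values are counts per scaled library size (CPM), with library sizes scaled by TMM and the SD over replicates, and 13325 regions passed the filter on low counts, all 24 Klf regions among them. The share of counts within 1 kb of a gene end ran from 61.1% to 73.8%, with the highest value in replicate 3 of the HSC from IκB– recipients, and averaged 67.3% ± 2.53 in WT and 67.5% ± 3.24 in IκB– recipients. Markers of the subsets followed the labels only in part, and the 3 single regions given first were picked from longer lists. The myeloid gene Cebpa averaged 38.2, 41.4, 96.3 and 88.8 CPM in HSC, MPP2, MPP3 and MPP4, so it was nearly as high in MPP4 as in MPP3. A region in Flt3 averaged 28.6, 37.4, 34.2 and 61.8 CPM, highest in MPP4. The region in Slamf1, which encodes CD150, averaged 22.6, 18.97, 2.98 and 12.3 CPM in the same order. It was highest in HSC, although that gate is written as negative for CD150. The lists as a whole followed the labels less clearly. Over the regions tested, the median of the HSC markers was 35.95, 43.3, 47.7 and 46.4 CPM in that order, lowest in HSC, and that of the MPP2 markers was 41.8, 39.1, 27.5 and 37.5 CPM, highest in HSC. The MPP3 markers had medians of 37.1, 27.7, 43.7 and 37.1 CPM and the MPP4 markers 27.6, 28.6, 44.6 and 44.5 CPM. Among the markers with no region assigned were Hoxb5, Ly6a, Gata1, Mpo, Elane, Il7r, Rag1 and Ccr9. Of 19 markers of B, T, granulocytic, erythroid, stromal and endothelial cells, 4 had a region, none of which edgeR called in any comparison. None of these had an unadjusted p under 0.05 in the joint subset test, where 18.8% of all regions did. Their summed level ran from 103.9 to 164.9 CPM in WT and from 116.1 to 189.9 CPM in IκB– recipients.

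Of the 24 Klf regions, 12 were at a gene end (less than 1 kb from it), 6 in a gene body and 6 outside genes, against 55.9%, 25.4% and 18.6% of all regions tested. Klf13 had 5 regions, Klf9 had 4, Klf12 had 3, Klf2, Klf3, Klf4, Klf7 and Klf10 had 2 each, and Klf6 and Klf11 had 1 each. Per kb of region, the mean over all replicates was highest at the start of Klf6, with 373 CPM per kb, and at the start of Klf13, with 361 CPM per kb. The Klf10 gene end followed with 327 CPM per kb, and the starts of Klf2, Klf7, Klf11, Klf3 and Klf9 lay between 222 and 258 CPM per kb. The start of Klf4 was the least accessible of the start regions, with 144 CPM per kb, and the regions outside genes ranged from 94.5 to 172 CPM per kb. The median Klf region had 57.3 CPM, against 50.6 CPM over all regions tested, and the median gene-end Klf region had 146 CPM, against 67.9 CPM over all gene-end regions.

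**Figure D1:**
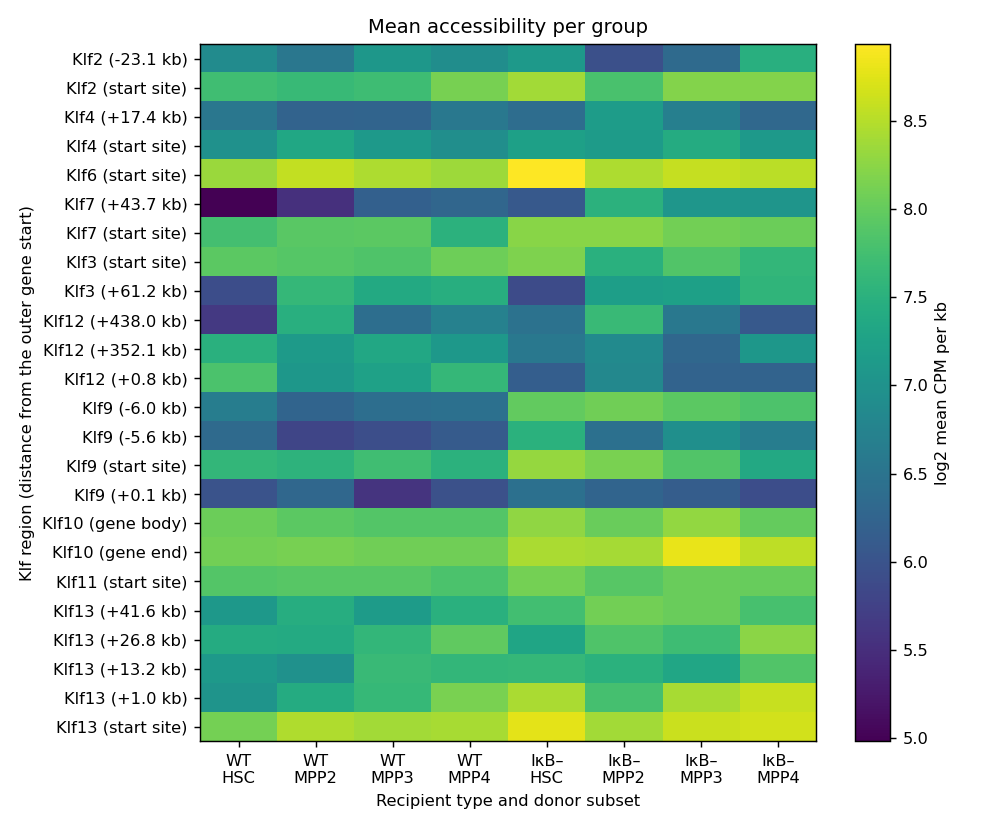
Mean accessibility of the 24 Klf regions in the 8 groups, as log2 of mean CPM per kb of region (color), with genes ordered as activators, CtBP-binding and SIN3-binding. The start regions of Klf6 and Klf13 are among the brightest rows, and the row of the Klf9 region 6.0 kb before the start is brighter in all 4 IκB– columns than in all 4 WT columns.

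Recipient differences are given as the mean over the 4 subsets of the IκB– minus WT difference, on the log2 scale as fitted by edgeR. Their standard errors (SE) were derived from edgeR's F test. These SEs, and the n over all subsets, treat libraries of the 4 subsets as independent. Libraries with the same replicate number resembled each other across subsets, within a recipient type (median r = 0.15) and between types (median r = 0.12). The SEs may therefore be too small or too large. At the Klf regions 19 of 24 of these values were positive, with a median of 0.20, while 49.8% of all regions tested were positive, with a median of -0.002. The 12 regions of the SIN3-binding Klf9, Klf10, Klf11 and Klf13 all had positive values, from 0.13 to 1.44 with a median of 0.27. Klf13 held 5 of these 12 regions and Klf9, on which the choice rested above all, held 4. By subset, 11, 9, 11 and 10 of the 12 were positive in HSC, MPP2, MPP3 and MPP4. Of the 7 regions of the activators Klf2, Klf4, Klf6 and Klf7, 6 were positive, with a median of 0.18, and of the 5 regions of the CtBP-binding Klf3 and Klf12, 1 was positive, with a median of -0.14. Past an adjusted p of 0.05 were 3 of the 24 regions, near Klf9, in Klf13 and in Klf12, where 1.73% of all regions were, and nothing is read from that count because this contrast was in view when the genes were chosen. Subset markers also differed by recipient type: the median recipient difference was -0.15 over 13 regions of HSC markers, -0.45 over 10 regions of MPP2 markers, -0.26 over 7 regions of MPP3 markers and 0.20 over 8 regions of MPP4 markers. Called lower were 1 of the HSC and 2 of the MPP2 marker regions, in Slamf1, which is on both lists, and near Gfi1b. Summed, the MPP2 markers ran from 258.0 to 563.7 CPM in WT and from 212.6 to 419.2 CPM in IκB– recipients, and their part in the Klf values was not tested. In bulk samples a change in the mix of cells and a change of accessibility per cell cannot be told apart.

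**Figure D2:**
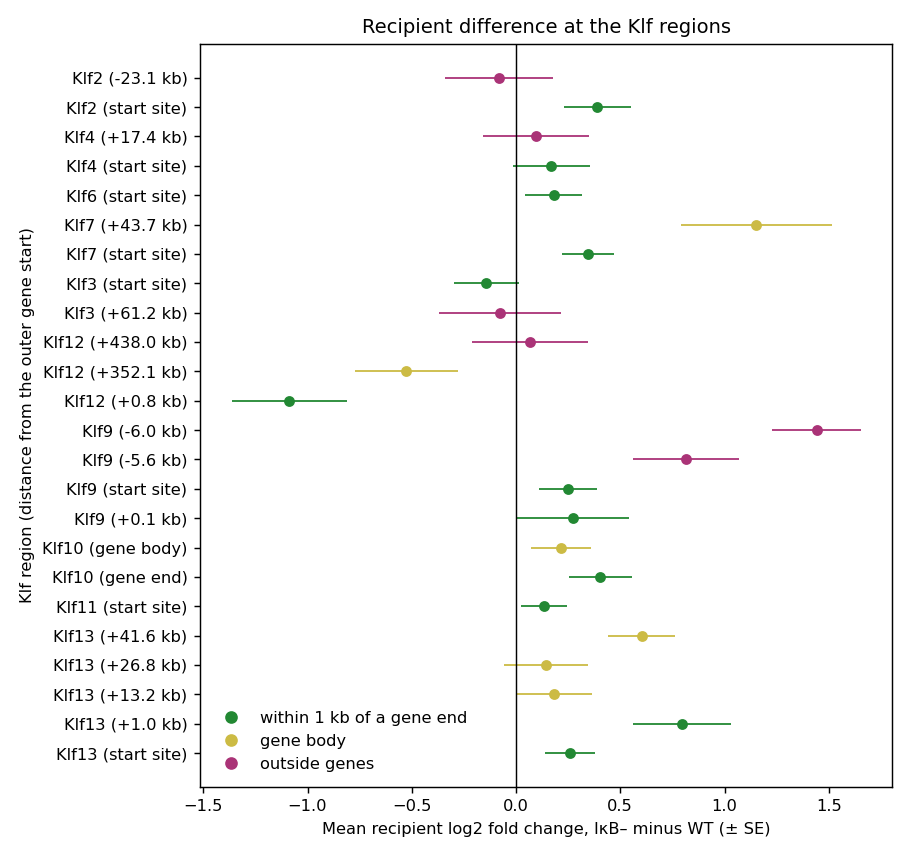
Mean recipient difference (IκB– minus WT, log2, points) with its SE (bars) at each Klf region, colored by position. The highest value is 1.44 at the Klf9 region 6.0 kb before the start and the lowest is -1.09 at the Klf12 region within 1 kb of the gene's outer start.

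The region named in the choice lies outside genes, 6024 bp before the start of Klf9 (chr19:23134882-23135202, 321 bp). Klf9 encodes a widely expressed factor that is known as a target of glucocorticoid and thyroid hormone receptors. In HSC it had 18.3, 31.3 and 47.2 CPM in the WT recipients and 62.0, 98.3 and 84.3 CPM in the IκB– recipients. In MPP2 the values were 19.2, 27.3 and 27.5 CPM against 47.3, 124.8 and 88.1 CPM. In MPP3 they were 28.5 and 26.0 CPM against 55.5, 93.7 and 86.6 CPM, and in MPP4 41.7, 27.8 and 14.3 CPM against 49.0, 98.8 and 70.9 CPM. The recipient types did not overlap in any of the 4 subsets, and the lowest IκB– value of all, 47.3 CPM in MPP2, stood just above the highest WT value, 47.2 CPM in HSC.

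Over all subsets this region averaged 28.1 ± 9.64 CPM in WT recipients (SD, n = 11) and 79.9 ± 23.5 CPM in IκB– recipients (SD, n = 12), a ratio of 2.85. The fitted log2 differences (± SE) for HSC, MPP2, MPP3 and MPP4 were 1.28 ± 0.45, 1.68 ± 0.41, 1.47 ± 0.39 and 1.34 ± 0.45, and their mean was 1.44 ± 0.21. The counts behind these values are small, from 3 to 58 per library. Whether the recipient difference varied among subsets was tested with edgeR's quasi-likelihood test. The region near Klf9 did not pass (Benjamini-Hochberg adjusted p = 0.999), and 0% of all regions did. Nor did it pass edgeR's joint test of a difference among the subsets (Benjamini-Hochberg adjusted p = 0.929). With counts this small, neither result shows that the subsets were equal.

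**Figure D3:**
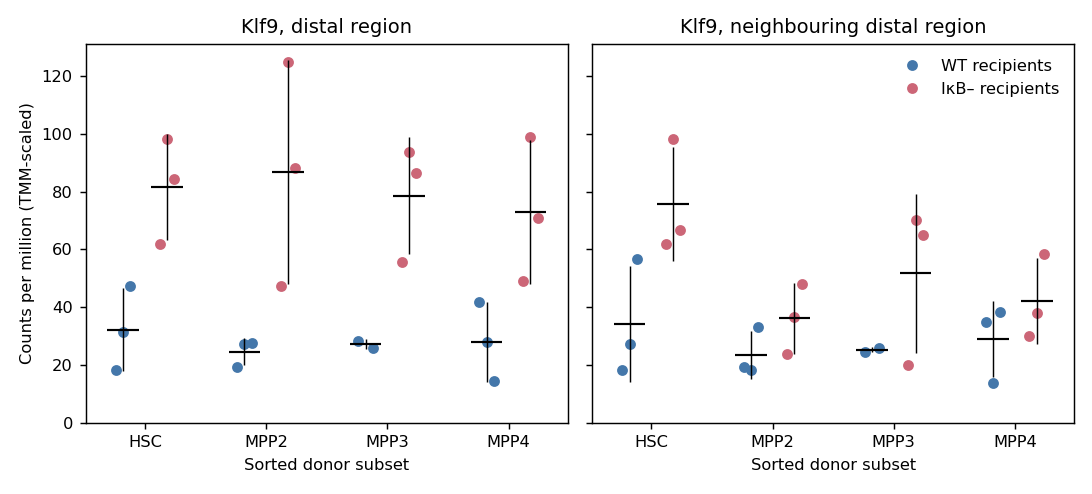
CPM per replicate (points) at the 2 neighbouring regions before Klf9, by subset and recipient type, with group means (horizontal bars) and SD (vertical bars). At the outer region every IκB– replicate is above every WT replicate, and at the inner region the recipient types overlap.

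A second region begins 46 bp beyond the first and ends 5562 bp before the Klf9 start (chr19:23135249-23135664). It averaged 28.2 ± 12.1 CPM in WT (SD, n = 11; lowest 13.9, median 26.0, highest 56.6) and 51.4 ± 22.9 CPM in IκB– recipients (SD, n = 12; lowest 20.1, median 53.3, highest 98.3). Here the recipient types overlapped, with 6 of 12 IκB– replicates above the highest WT replicate, and the mean difference was 0.82 ± 0.25. At the Klf9 start itself (chr19:23140771-23141311) WT replicates had 82.5 to 127.1 CPM with a median of 101.0, and IκB– replicates 78.9 to 214.4 CPM with a median of 134.2. The mean difference there was 0.25 ± 0.14, and at the adjoining region 88 bp inside the gene (chr19:23141314-23141746) it was 0.27 ± 0.27. The recipient types overlapped at both regions by the start.

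**Figure D4:**
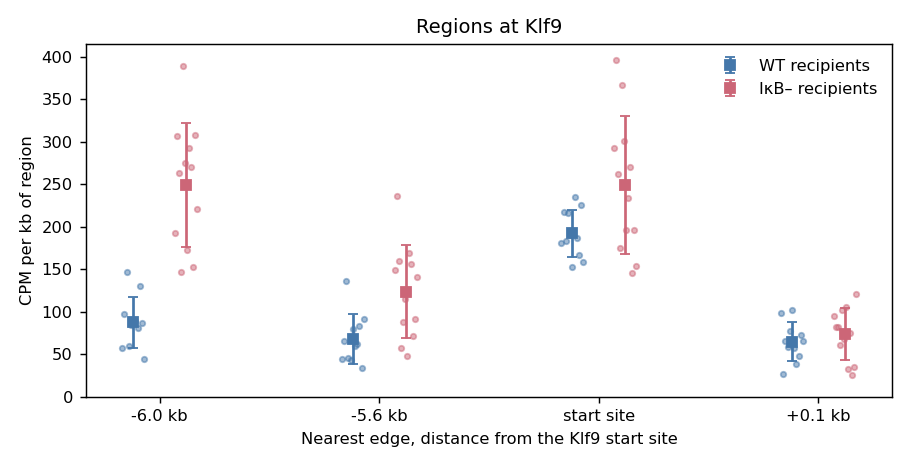
CPM per kb at the 4 Klf9 regions, placed by the distance of their nearest edge from the start, for each replicate (small points) with mean and SD over all subsets (squares and bars). The recipient types separate at the region 6.0 kb before the start and overlap at the other 3 regions.

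Among the other SIN3-binding genes, the 5 Klf13 regions differed in size of effect. Klf13 encodes a factor first described as an activator of Ccl5 in T cells. Its start (chr7:63938719-63939770) had 229.5 to 453.5 CPM in WT and 289.1 to 567.0 CPM in IκB– recipients, a mean difference of 0.26 ± 0.12. The region 990 bp inside the start (chr7:63937524-63937925) had 39.1 to 148.0 CPM with a median of 67.3 in WT and 34.4 to 239.6 CPM with a median of 131.5 in IκB– recipients, a mean difference of 0.80 ± 0.23. Both regions overlapped between the recipient types, with 4 of 12 IκB– replicates above the WT range in each.

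The region deepest in the Klf13 body, 41.6 kb from the start (chr7:63896801-63897277), averaged 76.2 ± 18.9 CPM in WT (SD, n = 11; 33.0 to 104.3) and 115.5 ± 30.4 CPM in IκB– recipients (SD, n = 12; 70.7 to 183.5), a mean difference of 0.60 ± 0.16. Over all subsets the recipient types overlapped there, with 6 of 12 IκB– replicates above the highest WT replicate. The other body regions, 13.2 and 26.8 kb from the start, had mean differences of 0.18 ± 0.18 and 0.14 ± 0.20 and overlapping values.

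Klf10 and Klf11 encode early response genes of TGF-β signalling. The Klf10 gene-end region (chr15:38300699-38301223) averaged 143.5 ± 45.2 CPM in WT (SD, n = 11; 69.5 to 226.4) and 197.8 ± 47.0 CPM in IκB– recipients (SD, n = 12; 123.9 to 267.1), a mean difference of 0.40 ± 0.15. The Klf10 body region (chr15:38299009-38299588) had a mean difference of 0.22 ± 0.14. The single Klf11 region, at its start (chr12:24651001-24652258), averaged 295.1 ± 27.8 CPM in WT (SD, n = 11) and 326.0 ± 62.0 CPM in IκB– recipients (SD, n = 12), a mean difference of 0.13 ± 0.11. The recipient types overlapped at all of these regions.

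Among the activators, Klf7, which is best known from neuronal development, had the widest contrast between its regions. Its body region 43.7 kb from the outer start (chr1:64078452-64078691) had a lowest value of 0, a median of 13.9 and a highest value of 27.8 CPM in WT, and 0, 27.1 and 80.7 CPM in IκB– recipients. The mean difference was 1.15 ± 0.36, and 11 of 12 IκB– replicates lay above the WT median, although 1 replicate in each recipient type had no count. That region held 173 counts in all libraries together. At the Klf7 start (chr1:64121475-64122413) WT replicates averaged 207.3 ± 48.6 CPM (SD, n = 11) and IκB– replicates 267.5 ± 48.2 CPM (SD, n = 12), a mean difference of 0.34 ± 0.13, with overlapping values.

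The start of Klf2 (chr8:72318772-72319163) averaged 88.6 ± 28.7 CPM in WT (SD, n = 11; 63.7 to 167.1) and 112.6 ± 39.1 CPM in IκB– recipients (SD, n = 12; 62.0 to 217.4), a mean difference of 0.39 ± 0.16. The Klf2 region 23.1 kb before the start (chr8:72295749-72295949) showed -0.08 ± 0.26. The start of Klf6, a gene induced early in many cell types by growth and injury signals, had a mean difference of 0.18 ± 0.14 (chr13:5861108-5861597; 169.4 ± 39.7 CPM in WT, n = 11, and 195.3 ± 53.7 CPM in IκB–, n = 12, SD). The start of Klf4 (chr4:55532456-55532855) averaged 54.9 ± 16.3 CPM in WT (SD, n = 11) and 60.1 ± 16.0 CPM in IκB– recipients (SD, n = 12), a mean difference of 0.17 ± 0.18, and the Klf4 region 12.1 kb beyond the far end of the gene showed 0.10 ± 0.25. At all of these regions the replicates of the recipient types overlapped. The highest IκB– values at the starts of Klf2, Klf3, Klf6, Klf7 and Klf11 came from HSC replicate 3, with the highest gene-end share. Those at the starts of Klf4, Klf9 and Klf13 came from other libraries. The lowest WT values at the starts of Klf6, Klf7, Klf11 and Klf13 came from MPP4 replicate 1, with the lowest share. At Klf2, Klf3, Klf4 and Klf9 they came from other libraries. At both Klf10 regions the lowest WT value, 69.5 CPM, also came from MPP4 replicate 1. The highest IκB– value came from HSC replicate 3 at the Klf10 body region (283.9 CPM) and from MPP3 replicate 2 at its gene end (267.1 CPM).

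The CtBP-binding genes held 4 of the 5 negative values. The Klf12 region 839 bp inside the gene's outer start (chr14:100284822-100285052) averaged 41.5 ± 14.5 CPM in WT (SD, n = 11; lowest 21.2, median 41.7, highest 66.1) and 19.4 ± 9.87 CPM in IκB– recipients (SD, n = 12; lowest 4.44, median 19.8, highest 40.3). All 12 IκB– replicates lay below the WT median, and 7 of them below the lowest WT replicate. The fitted differences for HSC, MPP2, MPP3 and MPP4 were -1.79 ± 0.64, -0.09 ± 0.49, -0.94 ± 0.48 and -1.53 ± 0.57, and their mean was -1.09 ± 0.28. This region had the smallest p of the Klf regions for a recipient difference that varies among subsets, and it did not pass (edgeR, Benjamini-Hochberg adjusted p = 0.999).

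The Klf12 body region (chr14:99933518-99933761) followed in the same direction, with 37.8 ± 13.4 CPM in WT (SD, n = 11) and 25.9 ± 10.1 CPM in IκB– recipients (SD, n = 12) and a mean difference of -0.53 ± 0.25. At the start of Klf3 (chr5:64802881-64803692), a gene whose product limits erythroid and B cell gene programs, WT replicates had 122.3 to 287.7 CPM with a median of 192.4 and IκB– replicates 117.0 to 417.0 CPM with a median of 157.9, a mean difference of -0.14 ± 0.16. This region also overlaps the gene model Gm38457, so its accessibility cannot be assigned to Klf3 alone. Both regions overlapped between the recipient types.

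By subset, the recipient difference was positive at 20 of the 24 Klf regions for HSC (median 0.47), at 14 for MPP2 (median 0.16), at 19 for MPP3 (median 0.18) and at 18 for MPP4 (median 0.21), against medians of 0.027, 0.005, 0.007 and -0.006 over all regions. In HSC, replicate 3 from IκB– recipients, the library with the highest share of counts at gene ends, moved these values: without it 17 of 24 were positive and the median was 0.17. None of the 24 Klf regions passed edgeR's joint test for a recipient difference that varies among subsets, where 0% of all regions passed, and none had an unadjusted p under 0.05 (539 of the 13325 did). DESeq2's likelihood ratio test also called none of the 24.

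Differences among the donor subsets were not used in choosing the genes, and here 1 of the 24 Klf regions was called in edgeR's joint test of HSC, MPP2, MPP3 and MPP4, where 7.18% of all regions were, so the share of Klf regions was no higher than that of all regions. The called region lies outside genes, 18.3 kb beyond the far end of Klf12 (chr14:99847472-99847879), and was most accessible in MPP2. Klf12 encodes a CtBP-dependent repressor first described at the AP-2α gene. In MPP2 this region had 110.7, 57.6 and 49.5 CPM in WT and 108.5, 58.7 and 80.1 CPM in IκB– recipients. In HSC it had 30.6, 11.7 and 18.9 CPM in WT and 55.1, 44.7 and 8.87 CPM in IκB– recipients. The lowest MPP2 value, 49.5 CPM, was above 5 of the 6 HSC values.

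In MPP3 the same region had 28.5 and 41.3 CPM in WT and 20.1, 77.3 and 18.9 CPM in IκB– recipients, and in MPP4 48.7, 41.7 and 38.2 CPM in WT and 32.7, 38.0 and 12.3 CPM in IκB– recipients. All MPP4 values and all but 1 MPP3 value were below all MPP2 values. The means over both recipient types were 28.3 ± 18.6 CPM in HSC (SD, n = 6), 77.5 ± 26.8 in MPP2 (SD, n = 6), 37.2 ± 24.1 in MPP3 (SD, n = 5) and 35.3 ± 12.4 in MPP4 (SD, n = 6). The joint edgeR test gave a Benjamini-Hochberg adjusted p of 0.00218. The region was lower in MPP3 than in MPP2 by a log2 fold change of -1.19 ± 0.31 (SE; edgeR adjusted p = 0.0100) and lower in MPP4 than in MPP2 by -1.31 ± 0.34 (SE; edgeR adjusted p = 0.0206). MPP2 and HSC differed by 1.71 ± 0.38, which did not pass (edgeR adjusted p = 0.0984), although it did in 5 of 32 alternatives. Among them were total counts as library sizes (edgeR adjusted p = 0.0408). Both fits with a block for the replicate number were also among them, with a lowest edgeR adjusted p of 0.00669.

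The calls at the Klf12 downstream region rested partly on single libraries. Without replicate 1 of WT MPP2 the edgeR adjusted p of the joint test was 0.0709, that of MPP3 minus MPP2 0.115 and that of MPP4 minus MPP2 0.137, while the log2 differences were -0.93 and -1.06. The MPP3 minus MPP2 call was also lost without replicate 1 of WT MPP3, of IκB– MPP2 or of IκB– MPP3, and the MPP4 minus MPP2 call without replicate 2 or 3 of WT MPP4, replicate 1 of IκB– MPP2 or replicate 3 of IκB– MPP4. DESeq2 gave adjusted p = 0.0548 and 0.0638 for these differences. Of the 10 tested regions of the MPP2 markers, which are genes of the megakaryocyte and erythroid lineages, 4 were called lower in MPP3 than in MPP2, where 8.14% of all regions were called in either direction, and 0 were called in MPP2 minus HSC. Their summed level overlapped between subsets: it ran from 235.1 to 527.7 CPM in HSC, from 227.5 to 563.7 CPM in MPP2 and from 249.8 to 387.3 CPM in MPP3. No region was assigned to Gata1, and the part of these markers in the Klf12 result was not tested.

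**Figure D5:**
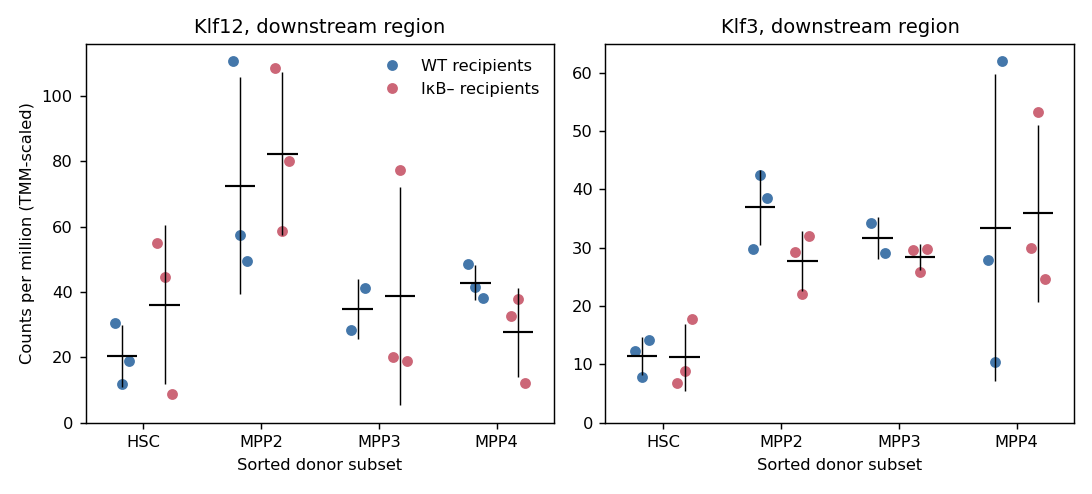
CPM per replicate (points) at the Klf12 and Klf3 downstream regions, by subset and recipient type, with group means (horizontal bars) and SD (vertical bars). The Klf12 region is highest in MPP2, and the Klf3 region is lowest in HSC in both recipient types.

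The next smallest p in the joint subset test belonged to a region 31.8 kb past the end of Klf3 (chr5:64864721-64864909). It had 12.2, 7.82 and 14.2 CPM in WT HSC and 6.88, 8.93 and 17.8 CPM in IκB– HSC, each from 1 to 4 counts. In the progenitors it averaged 32.3 ± 7.25 CPM in MPP2 (SD, n = 6), 29.7 ± 2.98 in MPP3 (SD, n = 5) and 34.7 ± 19.2 in MPP4 (SD, n = 6). All HSC values were below all MPP2 and MPP3 values, and MPP4 overlapped HSC through 1 replicate at 10.4 CPM. The log2 differences from HSC were 1.44 ± 0.44 in MPP2, 1.33 ± 0.44 in MPP3 and 1.44 ± 0.46 in MPP4 (SE). None passed (edgeR, Benjamini-Hochberg adjusted p = 0.371, 0.0941 and 0.105), nor did the joint test (adjusted p = 0.0957, edgeR). In alternatives, MPP3 minus HSC passed in 3 of 32, with a lowest edgeR adjusted p of 0.0362, and MPP4 minus HSC in 1 of 32. With either block for the replicate number the joint test passed as well. The depth in HSC limits this comparison.

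Over the pairwise comparisons, 0 of 24 Klf regions were called by edgeR in MPP2 minus HSC (0.0300% of all regions), MPP3 minus HSC (2.57%), MPP4 minus HSC (1.27%) and MPP4 minus MPP3 (0%). In these comparisons 3, 1, 3 and 0 Klf regions had an unadjusted p under 0.05, and DESeq2 called none of them. The Klf12 downstream region was the only one called in MPP3 minus MPP2 (8.14% of all regions) and in MPP4 minus MPP2 (3.38%). In MPP4 minus MPP3 the smallest p belonged to the Klf13 region 26.8 kb inside the gene, which averaged 47.1 ± 12.5 CPM in MPP3 (SD, n = 5) and 64.4 ± 18.9 in MPP4 (SD, n = 6), a log2 difference of 0.52 ± 0.26 that did not pass (edgeR adjusted p = 0.999). The gene-end Klf regions differed from HSC by between -0.40 and 0.17 in MPP2, -0.26 and 0.26 in MPP3 and -0.50 and 0.55 in MPP4 on the log2 scale. The medians over all 24 Klf regions, -0.02 in MPP2, -0.02 in MPP3 and 0.02 in MPP4, were close to those over all regions, -0.01, -0.02 and -0.02.

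Genes related to the family were described with the same assignment, and their counts stand beside 7.18% of all regions called in the joint subset test. Of the other 7 Klf genes, Klf1, Klf5, Klf8, Klf15 and Klf16 had 6 regions, of which the Klf5 gene end was called in the joint subset test. Klf5, an activator that keeps cells proliferating in many epithelia, averaged 216.6, 237.1, 156.6 and 180.8 CPM for HSC, MPP2, MPP3 and MPP4 (edgeR adjusted p = 0.0465). It was lower in MPP3 than in MPP2 by -0.59 ± 0.16 on the log2 scale. Of 10 regions of the related Sp genes edgeR called none in any comparison. In the joint subset test 1 of them had an unadjusted p under 0.05, where 18.8% of all regions did.

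Among 15 regions of KLF corepressors and partners, 1 in the body of Kat2b, a histone acetyltransferase, was called in the joint subset test, a share near that of all regions, at 110.7 CPM in MPP2 and 52.1 CPM in MPP3. Of the 10 regions of the MEF2 and ERK5 genes upstream of Klf2 and Klf4, 2 were called lower in MPP3 than in MPP2. Of all 13325 regions, 8.14% were called in either direction, 835 of them lower and 250 higher. The 2 called regions are both in Mef2c, which encodes a MEF2 transcription factor. The other 2 regions of Mef2c had log2 differences of 0.26 and 0.18 and were not called. Of the 12 regions of glucocorticoid response genes, a list that includes the receptor gene Nr3c1, edgeR called none in any comparison. In the joint subset test 1 of them had an unadjusted p under 0.05, where 18.8% of all regions did. Of 25 regions of TGF-β signalling genes tested, 2 were called in the joint subset test, again near the share of all regions, in the corepressor gene Ski and at the end of the coreceptor gene Tgfbr3.

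Of 18 regions of known KLF target genes, 3 were called in the joint subset test, where 7.18% of all regions were. Among them were 2 of the 3 regions of S1pr1, which encodes the sphingosine phosphate receptor that Klf2 controls in lymphocytes. The S1pr1 gene-end region averaged 58.7, 91.4, 37.0 and 40.5 CPM for HSC, MPP2, MPP3 and MPP4 (edgeR adjusted p = 0.000400), and the called region outside the gene 34.1, 37.2, 11.2 and 33.3 CPM (edgeR adjusted p = 0.00412). A body region of the cyclin gene Ccnd2 averaged 13.8, 9.23, 36.6 and 24.5 CPM (edgeR adjusted p = 0.00345). These S1pr1 regions had their lowest mean in MPP3 and the Ccnd2 region its highest, while the start region of Klf2 averaged 107.3, 83.0, 102.1 and 112.2 CPM and was not called. Against WT recipients the S1pr1 gene-end region had a mean difference of -0.73.

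Regions of other genes whose log2 CPM most resembled the Klf9 distal region over the 23 replicates lay at the ends of Gm46294 (Pearson r = 0.85), Mt2 (r = 0.78) and Relt (r = 0.75) and in the bodies of Ptma (r = 0.73) and Tmem189 (r = 0.73). Mt2 encodes a metallothionein. These correlations share the recipient groups and the libraries with each other and are given as a description without a test.

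The limit of 50 kb fell in a gap. The outermost Klf region outside genes was that of Klf3 at 31.8 kb, with a mean recipient difference of -0.07 ± 0.29, and the nearest left out was 72.6 kb from Klf13 (chr7:64011550-64012170), with 69.0 CPM and 0.57 ± 0.17. A further left-out region 75.4 kb from Klf13 had -0.98 ± 0.37.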

How the data were processed

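The members and gene lists were chosen with earlier results of these data known. The deposited values are raw counts per region for 24 libraries, made by the authors; per the submitters' processing notes, the genome build was mm10 and the tools included Bowtie2, SAMtools, Picard, MACS2 2.1.0 and deepTools, with no roles given. The counting tool, duplicate handling and transposase offset are not given in the sources used here, so PCR copies may be among the counts. Columns with KO in their names were read as IκB– recipients. Gene names, positions and promoter sequences came from RefSeq tables of GRCm38.p6.

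Counts were tested with edgeR 4.0.16 in R 4.3.3: TMM scaling, filterByExpr, and quasi-likelihood F tests with robust estimation on a model with 1 mean for each of the 8 groups (23 replicates, 15 residual degrees of freedom). The Benjamini-Hochberg adjustment ran over all 13325 tested regions, and called means an adjusted p under 0.05. The SE of a log2 difference is its absolute value divided by the square root of F, which is unreliable for very small differences. Alternatives were DESeq2 1.42.0, limma-voom (limma 3.58.1), other scalings, no filter, replicate blocks, nuclear placed chromosomes alone, a distance of 10 kb and each library left out. The fit was tested on simulated data. Named regions were the Klf9 distal region, each gene's most accessible gene-end region, regions called in a subset test, the smallest p in each subset test and the extremes of the recipient difference; the remaining Klf regions were named after their values were seen.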

Additional observations from a re-analysis of the deposited data

How the results depend on the processing

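Counts of called Klf regions are small, so 1 region moves them. The share of all regions called in each alternative is not given here, so these counts are not read as a result about the Klf regions. For MPP2 minus HSC the count was 0, and 1 with total counts as library sizes and with the replicate block over all recipients or within recipient type, each time the Klf12 downstream region (adjusted p = 0.0105 and 0.00669 in edgeR with the blocks; leaving out 1 library gave 0 to 1, with 1 without replicate 1 of IκB– HSC or replicate 2 of IκB– MPP3). For MPP3 minus HSC it was 0, and 1 with either replicate block (0 to 1, with 1 without replicate 3 of IκB– HSC). For MPP4 minus HSC leaving out 1 library gave 0 to 1, with 1 without replicate 2 of WT MPP4. For MPP3 minus MPP2 and for MPP4 minus MPP2 it was 1, and 0 with DESeq2 and with the limit of 10 kb, which drops the Klf12 downstream region (0 to 1 each, with the libraries named above). The joint subset count was 1, 0 with the limit of 10 kb, and 2 with either replicate block, where the Klf3 downstream region was added (0 to 2; 0 without replicate 1 of WT MPP2, and 2 without replicate 2 of WT MPP4).

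For the mean recipient difference, 1.73% of all regions were called in the main fit, and the share in the other fits is not given here. Nothing is read from the Klf counts that follow, because this contrast was in view when the genes were chosen. The count for the mean recipient difference was 3, 7 with the replicate block, and 1 to 5 with 1 library left out. It was 1, the Klf9 distal region, without replicate 1 of WT MPP2, replicates 2 and 3 of WT MPP3, replicate 2 of WT MPP4, replicate 3 of IκB– HSC, replicate 2 or 3 of IκB– MPP2, replicate 3 of IκB– MPP3 or replicate 3 of IκB– MPP4, and 5 without replicate 1 of IκB– HSC. The counts of MPP4 minus MPP3 and of the recipient difference that varies among subsets stayed at 0 in all alternatives run. At the Klf9 distal region the mean difference ran from 1.35 to 1.54 over 31 alternatives, and at the Klf12 region near the outer start from -1.26 to -0.93. The number of positive Klf regions ran from 17 to 20. The sign changed in 6, 2 and 1 alternatives at the Klf12 and Klf3 downstream regions and at the Klf9 region 88 bp inside the gene, and at no region with another scaling. The Klf2 region 23.1 kb before the start passed the filter in 18 of the 31. The cause of these changes was not tested.

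The labels give the same replicate numbers to all groups but do not say that a number marks shared mice. Deviations of libraries with the same number correlated with a median of 0.15 within a recipient type and 0.12 between types, against -0.086 and -0.031 for different numbers, not every pair exceeded 0.1, and 24 of 24 libraries correlated best with their own number on average. Libraries of the same number thus shared variation, which the main model leaves out. Since the labels do not say what a number marks, the block was kept as an alternative. Recipient differences were not taken from the fit with blocks within recipient type. At 1 to 58 counts per library in the Klf9 distal and Klf3 downstream regions, depth limits the precision.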
